A study of Mus musculus with 8 samples.

Results

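The 10 circadian clock genes Arntl, Npas2, Clock, Nr1d1, Nr1d2, Per1, Per2, Per3, Dbp and Tef were examined in mouse hearts, as 10 of the 34745 genes counted. They were chosen by name from the counts of all 8 libraries, to read where in the daily cycle each library stood, so their levels are given as a description, without a test. RNA was sequenced from hearts of db/db mice, a model of type 2 diabetes mellitus (T2DM), and of db/m mice at 4, 12, 24 and 32 weeks of age, with 1 library for each genotype and age. Both genotypes were untreated mice of the strain labelled C57BL/KsJ, given as male in the study's methods. The db allele is a mutation of Lepr, the leptin receptor gene, and db/db mice carry it on both chromosomes and db/m mice on a single one. The allele is present in every tissue of the mouse, so a db/db heart also sits in a body that becomes obese and diabetic. The paper describes db/db mice as prehyperglycemic at 4 weeks and hyperglycemic at 24 and 32 weeks. The methods state a light-dark cycle, free access to food and a fast before sampling. The methods assign more db/db mice to sequencing than the 4 libraries of that genotype, so a library may be a pool, but how hearts were shared out is not given in the sources used here, nor is the clock time at which they were taken, and the text of the methods does not describe the libraries of 12 weeks. With 1 library per group, genotype, age, animal and time of sampling cannot be told apart at any single age.

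The circadian clock is a transcriptional loop that runs in nearly every cell, including cardiomyocytes. BMAL1, encoded by Arntl, pairs with CLOCK or NPAS2 and binds E-boxes to switch on the Per and Cry genes, Nr1d1, Nr1d2 and Dbp. PER and CRY proteins then inhibit that pair, while the products of Nr1d1 and Nr1d2 repress Arntl at RORE sites and DBP and TEF act at D-boxes. In mouse peripheral tissues, Nr1d1 and Dbp transcripts crest first, Per2 and then Cry1 follow, and Arntl, Clock and Npas2 crest last, roughly opposite to Dbp. A single heart sampled once gives a single point of that cycle.

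Total counts ran from 14445436 to 26676268 over the 8 libraries. Levels are given as CPM, counts scaled to library size with TMM factors, which even out library composition, and as FPKM where genes are compared, since FPKM divides by gene length. All 8 heart muscle markers were detected in every library, with a summed level of 54008 to 65298 CPM, of which Myh6 made 31854 to 37167. At 4 weeks 4 of these 8 were at least 1.5-fold higher in db/db, where 11.7% of all genes were, with a median log2 difference of 0.59. Other cells differed between libraries. The summed level of 4 atrial markers was 346 CPM in db/m 32 weeks, 246 in db/db 24 weeks and 161 in db/db 4 weeks, against 39.9 to 79.4 in the other 5, in 4 of which Myl7 had 0 counts. The summed level of 6 leukocyte markers was 107 CPM in db/db 32 weeks and 26.4 to 55.5 elsewhere, and that of 5 red blood cell markers was 66.8 CPM in db/db 32 weeks and 211 to 570.0 elsewhere. The summed level of 8 skeletal muscle markers was 740.2 CPM in db/m 32 weeks, of which Acta1 made 739, and 84.0 to 369 elsewhere. In db/m 32 weeks 5 of these 8 markers were at or under 3 counts, so that sum rests on Acta1. In db/m 4 weeks 0 were, and the fast myosin Myh4 was highest there at 52.2 CPM. The summed level of 8 liver markers was 22.5 to 28.1 CPM in db/db 12, 24 and 32 weeks and 1.64 to 7.59 elsewhere. That of 8 adipose markers was 16.9 to 25.9, but Cidea alone had 11.3 to 24.7 CPM. Adipoq, Plin1 and Cfd had 9, 14 and 29 counts in db/m 32 weeks and 1, 2 and 0 in db/db 32 weeks. At 4 weeks they had 6, 3 and 18 in db/m and 22, 22 and 12 in db/db. The part of these cells in the levels of the clock genes was not tested, and in whole hearts fewer cells of a type and less RNA per cell cannot be told apart. Lepr had 61 to 223 counts, and a gene count does not read its mutation.

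Promoter sequences are shown because these genes act on each other at short DNA motifs. RefSeq promoters on build GRCm38.p6, each from 250 bases before to 50 after a transcript start, were found for 9 of the 10 genes (all but Per2) at 14 starts. Motifs were read on both strands as exact letters, and the forms searched do not overlap in these windows. The E-box CACGTG occurred in 7.15% of all 32851 promoters and at 3 starts of these genes, 1 in Per1 and 2 in Tef. The D-box, searched as TTATGTAA, TTATGCAA or TTACGTAA, occurred in 1.78% of promoters and at the starts of Per1 and Per3. The RORE core, TAGGTCA or TGGGTCA, occurred in 6.45% of promoters and at the second start of Arntl. A match describes letters and is not evidence of binding. In the sequences that follow, capitals mark the motif and all letters run 5′ to 3′ on the gene's strand. The Arntl stretch, chr7:113207531-113207557 on the plus strand, lies in an exon that is untranslated, and its RORE core starts 30 bases after the transcript start. The Per1 stretch, chr11:69098699-69098948 on the plus strand, holds an E-box 166 bases and a D-box 24 bases before the start. The Per3 stretch, chr4:151044666-151044915 on the minus strand, lies upstream of the gene and holds D-boxes 205 and 158 bases before the start. The Tef stretch, chr15:81811164-81811413 on the plus strand, lies within the gene outside its exons and holds an E-box 138 bases before its second start.
Arntl: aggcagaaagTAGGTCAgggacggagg
Per1: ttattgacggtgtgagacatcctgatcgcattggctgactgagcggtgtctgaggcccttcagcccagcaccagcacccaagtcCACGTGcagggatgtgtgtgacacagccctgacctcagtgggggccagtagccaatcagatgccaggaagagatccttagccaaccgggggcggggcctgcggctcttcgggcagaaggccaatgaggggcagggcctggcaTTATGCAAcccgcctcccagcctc
Per3: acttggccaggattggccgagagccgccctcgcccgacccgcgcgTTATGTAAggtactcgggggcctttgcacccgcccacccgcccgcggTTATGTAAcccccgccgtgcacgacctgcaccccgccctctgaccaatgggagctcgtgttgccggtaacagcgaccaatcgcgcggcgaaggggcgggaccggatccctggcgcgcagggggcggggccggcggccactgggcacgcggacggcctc
Tef: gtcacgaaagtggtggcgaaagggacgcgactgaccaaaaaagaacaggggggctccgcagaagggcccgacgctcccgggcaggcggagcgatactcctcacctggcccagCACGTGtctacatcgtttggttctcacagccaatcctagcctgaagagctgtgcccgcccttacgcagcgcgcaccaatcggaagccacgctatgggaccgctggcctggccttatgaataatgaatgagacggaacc

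Among the activators, Arntl (ENSMUSG00000055116, chr7:113207465-113314122) encodes the partner shared by CLOCK and NPAS2. The Arntl level at 4, 12, 24 and 32 weeks was 8.22, 21.0, 26.9 and 28.8 CPM in db/m. In db/db of the same ages it was 9.83, 25.2, 18.9 and 4.25 CPM. Arntl was thus low at 4 weeks in both genotypes and high at 12 weeks in both, while at 32 weeks the db/m library was the highest of the 8 and the db/db library the lowest, with 549 and 86 counts. Npas2 (chr1:39193731-39363236), which can stand in for CLOCK, was at 7.07, 11.2, 11.0 and 10.1 CPM in db/m and at 6.08, 9.57, 5.79 and 4.35 CPM in db/db. Clock (chr5:76209868-76304792) varied less, at 83.1, 99.8, 123 and 97.8 CPM in db/m and 91.6, 120.0, 128 and 83.0 CPM in db/db. Npas2 was lower in the db/db than in the db/m library at all 4 ages, at 4 and 12 weeks by no more than counting error allows (log2 difference -0.21 ± 0.18 and -0.22 ± 0.13, counting SE), and all 3 activators had their lowest level in db/db 32 weeks, although Clock differed there from db/m 4 weeks by less than counting error. Per length, Arntl spanned 1.54 to 9.39 FPKM, Clock 3.92 to 5.47 and Npas2 0.926 to 2.26.

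Nr1d1 (chr11:98767932-98775333) and Nr1d2 (chr14:18204054-18239127) encode REV-ERBα and REV-ERBβ, the nuclear receptors that repress Arntl. The Nr1d1 level was 76.1, 97.7, 80.4 and 67.3 CPM in db/m and 80.0, 91.0, 121 and 50.2 CPM in db/db at 4, 12, 24 and 32 weeks. Nr1d2 was at 202, 142, 119.9 and 117 CPM in db/m and at 155, 113, 112 and 136 CPM in db/db. The pair did not move together, since Nr1d1 was highest in db/db 24 weeks, where Nr1d2 was lowest (112 CPM, close to 113 in db/db 12 weeks), and lowest in db/db 32 weeks, where Nr1d2 stood above 4 other libraries. The end of Nr1d1 overlaps Thra, the thyroid hormone receptor α gene on the other strand, over 488 of its 3077 exon bases in GENCODE vM21. The strand setting of the counting is not given in the sources used here, so reads of that stretch cannot be assigned. Thra ran from 77.2 to 100.5 CPM over the libraries, a narrower span than that of Nr1d1. Per length the mean levels were close, 23.6 FPKM for Nr1d1 and 23.8 for Nr1d2.

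The Per genes encode the PER proteins that close the negative loop, and Per1 also answers directly to glucocorticoids. The Per1 level (chr11:69095217-69109960) was 111, 49.9, 29.6 and 104.5 CPM in db/m and 126, 104.9, 135 and 164 CPM in db/db. Per2 (chr1:91415982-91459324) was at 71.7, 20.7, 13.5 and 34.3 CPM in db/m and at 56.7, 19.6, 33.5 and 80.3 CPM in db/db. Both were lowest in db/m 24 weeks and highest in db/db 32 weeks, and Per1 was higher in the db/db library at all 4 ages, except at 4 weeks on total counts alone or as an FPKM ratio (log2 difference -0.02 in both). Per3 (chr4:151003652-151044665) was at 116, 53.0, 36.3 and 26.0 CPM in db/m and at 68.1, 42.5, 28.1 and 60.8 CPM in db/db. Per3 was lower in db/db at 4, 12 and 24 weeks and higher at 32 weeks. Its whole span lies within Camta1 on the same strand, so intronic reads of Camta1 could be counted to it, and Camta1 itself varied 1.57-fold against 4.44-fold for Per3.

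Dbp (chr7:45705088-45710155) and Tef (chr15:81802421-81826861) encode PAR bZIP factors that pass the rhythm to D-box genes. The Dbp level was 68.9, 43.7, 16.0 and 10.7 CPM in db/m and 45.9, 36.5, 47.9 and 29.1 CPM in db/db. Tef was at 200.0, 138, 116 and 99.7 CPM in db/m and at 211, 159, 152 and 206 CPM in db/db. Both were lowest in db/m 32 weeks, and Tef was higher in the db/db library at all 4 ages, except at 4 weeks on total counts alone or as an FPKM ratio (log2 difference -0.12 in both). Dbp overlaps Sphk2, a sphingosine kinase gene on the other strand, over 539 of its 2993 exon bases, and Sphk2 varied 1.35-fold against 6.44-fold for Dbp. Tef and Arntl overlap antisense genes over 193 and 118 exon bases.

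**Figure D1:**
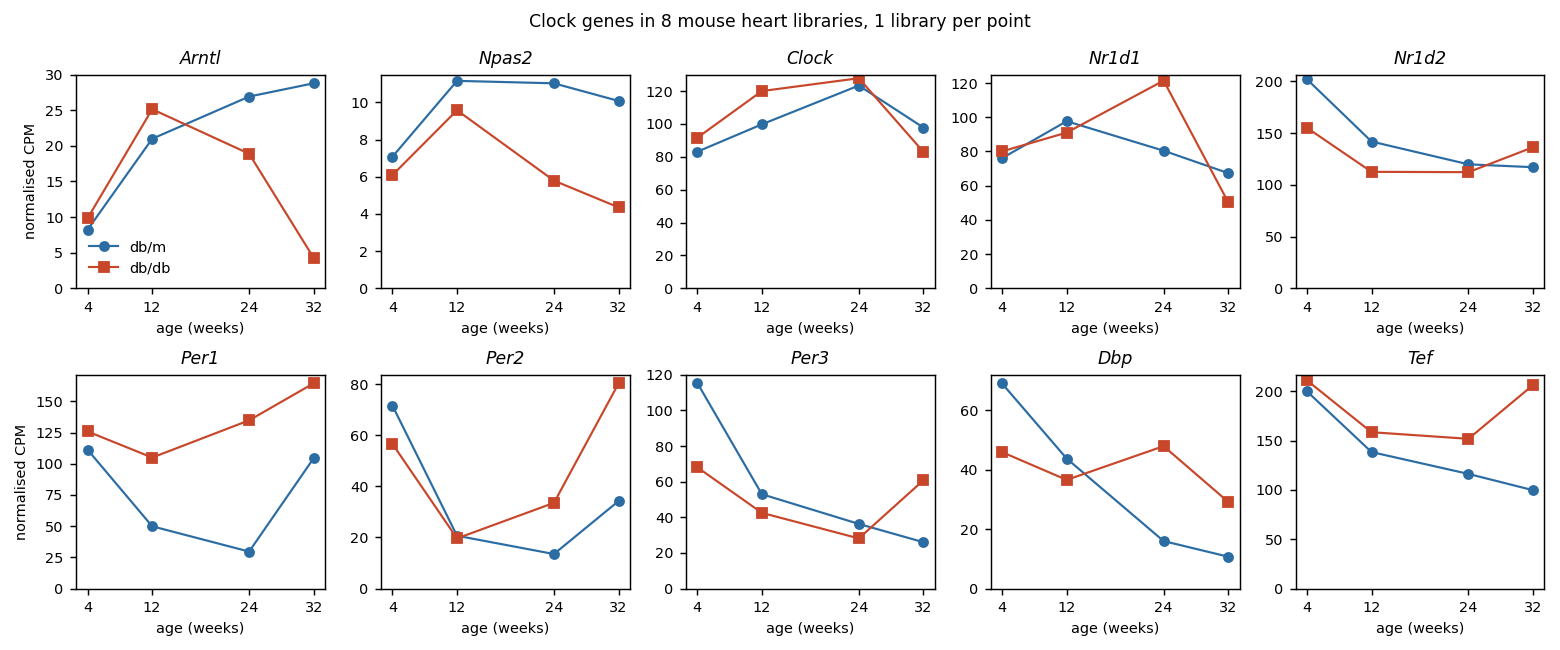
Normalised CPM (vertical axis, from 0) of each of the 10 clock genes against age in weeks, in db/m (blue circles) and db/db (red squares). Each point is 1 library without replicate, and lines only join libraries of a genotype. At 32 weeks Arntl stood at 28.8 CPM in db/m and 4.25 in db/db, and Per2 at 34.3 and 80.3.

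Over the 4 db/m libraries Arntl rose at every step of age, and Nr1d2, Per3, Dbp and Tef fell at every step. These orders, picked out after the values were seen, made 1 of 10 rising where 7.14% of 13992 genes with a mean of at least 1 CPM rose at every step, and 4 of 10 falling where 7.18% fell. In db/db 0 of 10 rose and 0 of 10 fell at every step, where 3.15% and 3.8% of all genes did. The levels of the 4 db/m and the 4 db/db libraries overlapped for each of the 10, so 0 of 10 were separated, against 6.42% of all genes. In db/m the step from 24 to 32 weeks was small for Arntl (26.9 to 28.8 CPM) and for Nr1d2 (119.9 to 117 CPM). Age rests on 1 library per step and cannot be told apart from the time of sampling.

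At 4 weeks, 0 of the 10 genes exceeded 1.5-fold upward in the db/db library, where 11.7% of 16559 genes did (a pair of libraries had to hold 10 counts of a gene), and 2 exceeded it downward, where 13.6% of all genes did. Differences between libraries are log2 values, and the standard errors (SE) behind them cover counting alone. The log2 difference was -0.76 ± 0.05 for Per3 and -0.59 ± 0.06 for Dbp, which lies just past the limit. Within the limit, Nr1d2 was at -0.38 and Per2 at -0.34. Scaling by total counts alone moved the median log2 difference of all genes from 0.02 to -0.17 at this age, and with it Clock, Nr1d1, Per1 and Tef changed from 0.14, 0.07, 0.18 and 0.08 to -0.05, -0.12, -0.02 and -0.12, as they also did with the FPKM ratio.

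At 12 weeks Per1 was 2.10-fold higher in db/db (log2 difference 1.07 ± 0.05), the 1 gene of 10 past 1.5-fold upward where 7.98% of 16472 genes were. None of the 10 was past it downward (0 of 10), where 8.69% of all genes were. The next largest differences were -0.33 for Nr1d2 and -0.32 for Per3. Arntl differed by 0.26 ± 0.09. In this pair 8 of 8 immediate early genes were also past 1.5-fold upward, where 7.98% of all genes were, by a median log2 difference of 2.32. Their part in the clock genes' differences was not tested.

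At 24 weeks, 4 of the 10 were past 1.5-fold upward, where 13.6% of 16608 genes were, and 1 was lower, where 14.3% were. Per1 was 4.54-fold higher, Dbp 2.99-fold, Per2 2.47-fold and Nr1d1 1.51-fold, at the limit. Scaled by total counts alone or as an FPKM ratio, Nr1d1 fell inside it (log2 difference 0.56), which left 4 of 10 past 1.5-fold in either direction. Npas2 was lower, by a log2 difference of -0.92 ± 0.15 on 147 counts against 239. Arntl was at -0.51 ± 0.09, inside the limit. The genes that BMAL1 drives did not move as a block, as Per3 and Nr1d2 were at -0.37 and -0.09. In this pair 4 of 4 atrial markers were also past 1.5-fold upward, where 13.6% of all genes were, by a median log2 difference of 5.55. Their part in the clock genes' differences was not tested.

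At 32 weeks, 5 of the 10 were past 1.5-fold upward, where 14.4% of 16445 genes were, and 2 were lower, where 11.9% were. Arntl had the largest difference of the 10 at any age, 6.65-fold lower in db/db (log2 difference -2.73 ± 0.17). Npas2 was 2.29-fold lower. Dbp was 2.71-fold higher, Per2 2.34-fold, Per3 2.33-fold, Tef 2.07-fold and Per1 1.57-fold. Clock, Nr1d1 and Nr1d2 were within the limit, at -0.24, -0.42 and 0.22. Atrial markers, the heat shock genes and immediate early genes were also lower in db/db in this pair, by median log2 differences of -4.04, -1.92 and -1.90, and their part in the clock genes' differences was not tested. The median size of the log2 difference among the 10 genes was 0.24, 0.26, 0.55 and 1.12 at 4, 12, 24 and 32 weeks, against 0.31, 0.22, 0.31 and 0.30 among all genes. These shares were not used to test the 10, because they were chosen on the same counts.

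**Figure D2:**
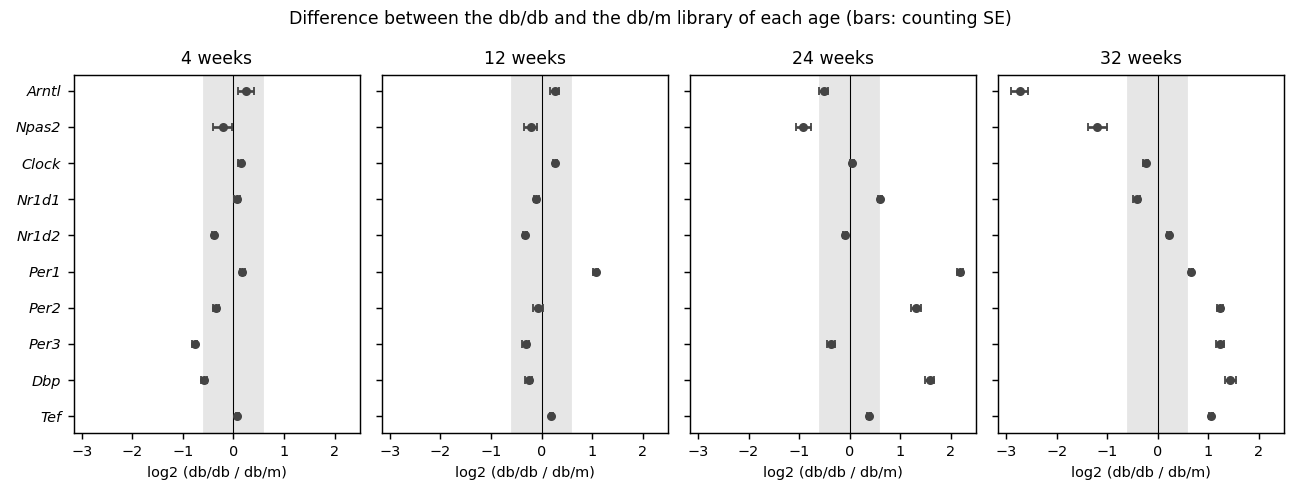
Log2 difference of the db/db from the db/m library (horizontal axis) for the 10 clock genes at each age. Bars are counting SE, and the grey band marks differences under 1.5-fold. Points spread from 4 to 32 weeks, where Arntl lay at -2.73 and Dbp at 1.44.

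Across all 8 libraries, whatever the genotype and age, the ratio of the highest to the lowest level was at least 2 in 8 of the 10 genes, where it was in 36.7% of 13992 genes. It was 6.77 for Arntl, 6.44 for Dbp, 5.94 for Per2, 5.55 for Per1, 4.44 for Per3 and 2.56 for Npas2. Nr1d1 at 2.42 and Tef at 2.12 lay just inside, and Nr1d2 at 1.80 and Clock at 1.54 outside. The median was 3.50 against 1.74 for all genes. Without db/db 32 weeks the number was 6, where 33.1% of all genes had such a range, since Npas2 and Nr1d1 dropped to 1.93 and 1.80, and Arntl then varied 3.51-fold. Per3 varied 2.62-fold without db/m 4 weeks, and Per1 3.30-fold without db/m 24 weeks. Dbp varied 4.32-fold without db/m 32 weeks.

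Since Arntl and Dbp crest nearly opposite each other, their ratio within a library orders the libraries without any scaling between them. The log2 ratio of Arntl to Dbp in FPKM was -2.27, -0.26, 1.55 and 2.22 in db/m of 4, 12, 24 and 32 weeks. In db/db it was -1.43, 0.26, -0.55 and -1.98. The db/m libraries therefore ran from the lowest to the highest ratio of all 8 with age, and the db/db libraries filled the middle and the low end. At 4 and 12 weeks both genotypes were within 0.85 of each other, and at 32 weeks the db/db ratio differed from the db/m ratio by -4.20. The ratio of Arntl to Per2 gave a different order at the top, 0.77 in db/m 32 weeks against 2.02 in db/m 24 weeks, and was lowest in db/db 32 weeks at -3.22. A single order of libraries did not hold for all 10 genes. In db/m 32 weeks, Dbp, Per3 and Tef were at their lowest while Per2 was the 4th highest of 8. The log2 ratio of Per2 to Dbp was 1.45 there, against -1.31 in db/m 12 weeks. In db/db 32 weeks, Per1, Per2, Cry1 and Cry2 were the highest of the 8 libraries while Arntl, Npas2, Clock and Nr1d1 were the lowest. No hour of the day was assigned to a library.

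**Figure D3:**
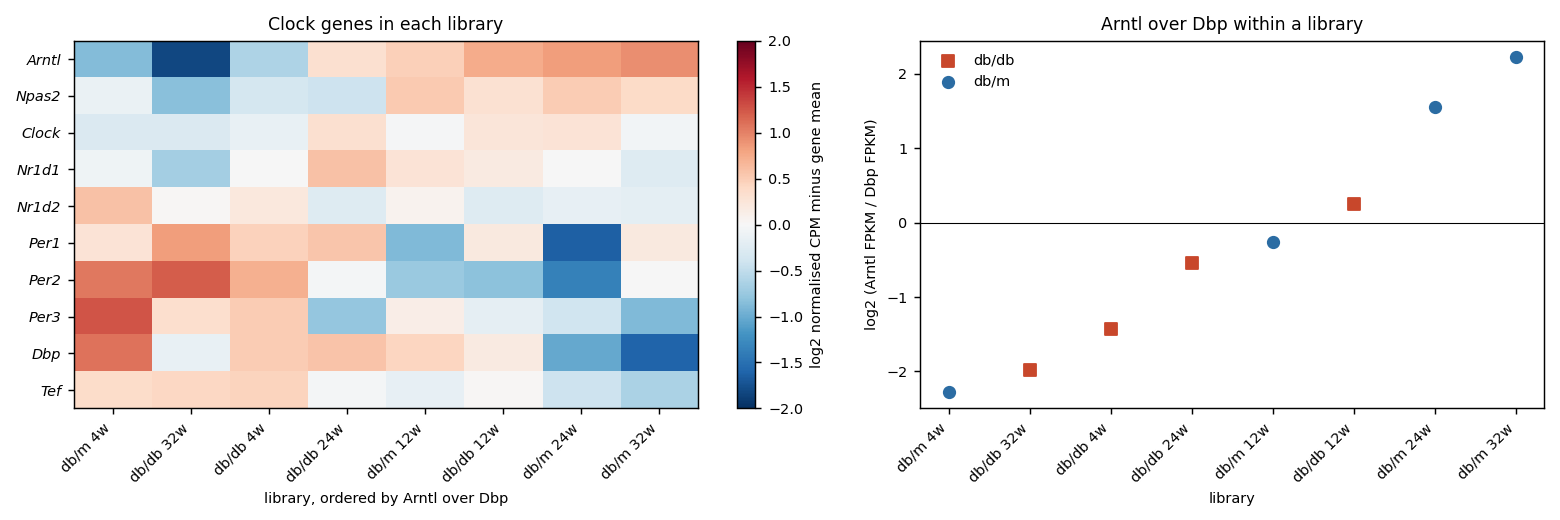
Left, log2 normalised CPM of each clock gene minus its mean over 8 libraries (colour, -2 to 2), with libraries ordered by the ratio of Arntl to Dbp. Right, that ratio on a log2 scale, from -2.27 in db/m 4 weeks to 2.22 in db/m 32 weeks.

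Correlations are of log2 CPM over the 8 libraries. They describe these libraries, which differ in genotype and age and have no replicates, and carry no p. Arntl ran with Npas2 (Pearson r = 0.84, Spearman rho = 0.74) and opposite to Per2 (r = -0.87, rho = -0.76) and Tef (r = -0.85, rho = -0.86). With the 2 libraries farthest from the median Arntl level left out, r was 0.74, -0.74 and -0.87. Arntl and Dbp gave r = -0.45, rho = -0.62 and r = -0.65 without 2 libraries. Arntl and Clock gave r = 0.76, rho = 0.62 and r = 0.46 without 2. Nr1d2 followed Per3 (r = 0.93, rho = 0.86, r = 0.79 without 2) more closely than it followed Nr1d1 (r = -0.25, rho = -0.40, r = -0.09 without 2). Dbp and Tef gave r = 0.77 and rho = 0.55, and r = 0.03 without 2, so that relation rested on those libraries. Arntl and Nr1d1, target and repressor, gave r = 0.58 and rho = 0.26, and r = -0.16 without 2. Nr1d1 and Thra, which overlap, gave r = 0.48 and rho = 0.60, and r = 0.65 without 2.

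Of 5131 genes with a mean of at least 1 CPM and a range of at least 2-fold, the 5 most like Arntl were Plet1os (r = 0.98), Polq (r = 0.98), Gm2004 (r = 0.95), Gm10110 (r = 0.95) and S100a16 (r = 0.94). Without the 2 libraries farthest from the median, r stayed between 0.72 for S100a16 and 0.97 for Plet1os. Polq, a DNA polymerase gene, went from 18.5 CPM in db/m 32 weeks to 4.84 in db/db 32 weeks. The 5 most like Dbp were Aqp11 (r = 0.96), Hunk (r = 0.95), Golph3l (r = 0.94), Stc2 (r = 0.93) and Gm36944 (r = 0.93). Aqp11 stood at 1.26 to 3.19 CPM, Hunk at 0.787 to 2.48 and Gm36944 at 0.787 to 2.11, so they rest on few counts. The same holds for Gm2004 in the Arntl list, at 1.24 to 3.37 CPM. Golph3l fell to r = 0.46 and Gm36944 to r = 0.69 without 2 libraries. With 8 points and this many genes, high values of r are to be found for most patterns.

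The other genes of the clock loop were a list of 11: Cry1 and Cry2 (partners of PER), Rora and Rorb (activators at RORE sites), Bhlhe40 and Bhlhe41 (E-box repressors), Ciart (a repressor of CLOCK and BMAL1), Nfil3 (which opposes DBP at D-boxes), Hlf (the PAR bZIP relative of Dbp and Tef), Arntl2 and Timeless. At 4, 12, 24 and 32 weeks, 2, 2, 2 and 3 of these 11 were past 1.5-fold upward in db/db and 1, 1, 2 and 4 downward, where 11.7%, 7.98%, 13.6% and 14.4% of all genes were past it upward and 13.6%, 8.69%, 14.3% and 11.9% downward. Ciart stood at 6.59, 3.67, 1.84 and 3.04 CPM in db/m and 5.81, 8.88, 16.6 and 6.77 CPM in db/db, with its highest and lowest levels both at 24 weeks. Cry1 was at 11.5, 6.42, 9.32 and 12.6 CPM in db/m and 10.4, 8.22, 9.21 and 17.5 CPM in db/db. Nfil3 was at 34.0 CPM in db/m 32 weeks and at 5.56 to 16.7 in the other libraries, so the library lowest in Dbp was the highest in its opponent. Hlf fell over the ages in db/m, from 29.5 to 10.9 CPM, as Dbp and Tef did, and in db/db was at 49.2, 20.6, 12.7 and 17.5 CPM. Log2 differences at 32 weeks were 0.81 for Cry2, -1.27 for Bhlhe40, -1.70 for Rorb and -0.64 for Timeless, and -2.28 for Arntl2 at 24 weeks. Rora stayed within 1.5-fold at each age. The range was at least 2-fold in 8 of the 11, with a median of 3.22, where it was in 36.7% of all genes, with a median of 1.74. Of the kinases and ubiquitin ligase subunits that act on clock proteins, 0 of 11 with a mean of at least 1 CPM had such a range, with a median of 1.33.

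**Figure D4:**
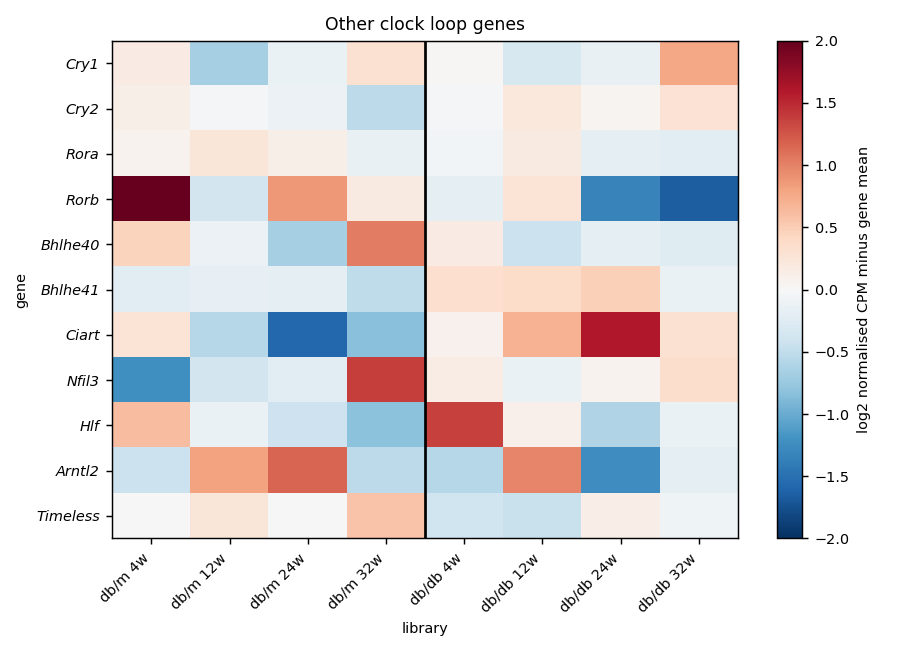
Log2 normalised CPM of 11 other clock loop genes minus each gene's mean over the 8 libraries (colour, ending at -2 and 2, which Rorb in db/m 4 weeks exceeds). The line parts db/m from db/db. Nfil3 was highest in db/m 32 weeks (34.0 CPM) and Ciart in db/db 24 weeks (16.6 CPM).

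Among 18 clock output genes, 2, 4, 4 and 5 were past 1.5-fold upward in db/db over the 4 ages and 1, 2, 2 and 1 downward, where 11.7%, 7.98%, 13.6% and 14.4% of all genes were upward and 13.6%, 8.69%, 14.3% and 11.9% downward. Usp2, a ubiquitin protease gene driven by the clock, was at 82.2 to 116 CPM in db/m and 146 to 168 in db/db. Kcnip2, a subunit of the cardiac transient outward potassium channel, was at 125, 134, 169 and 109.5 CPM in db/m and 92.6, 86.1, 58.5 and 64.7 in db/db. Bdh1, a ketone body enzyme, had the widest range, 4.77 to 94.6 CPM. Klf10, Ucp3, Coq10b and Pdk4 had ranges of 2.67, 2.81, 2.81 and 2.80. In the glucocorticoid list, which includes Per1, 4, 5, 8 and 3 of 10 genes were past that fold upward and 0, 0, 0 and 4 downward, where 7.98% to 14.4% of all genes were upward and 8.69% to 14.3% downward. Per1 is among the upward genes at 12, 24 and 32 weeks and was chosen on these counts. Per1 followed Fkbp5, which encodes a co-chaperone of the glucocorticoid receptor, with r = 0.97, rho = 0.90 and r = 0.90 without 2 libraries. Per2 followed Zbtb16 with r = 0.92, rho = 0.90 and r = 0.84 without 2. Per2 and Tsc22d3 gave r = 0.81, rho = 0.76 and r = 0.82 without 2. The other pairs held less well, as Per1 and Zbtb16 gave r = 0.86, rho = 0.67 and r = 0.41 without 2, Per1 and Tsc22d3 gave r = 0.87, rho = 0.76 and r = 0.16, and Per2 and Fkbp5 gave r = 0.73, rho = 0.64 and r = 0.40. Glucocorticoids raise Fkbp5, Zbtb16 and Tsc22d3, and Fkbp5 was at 58.7, 25.7, 19.4 and 72.8 CPM in db/m and 92.4, 67.2, 114 and 125 in db/db. Cdkn1a, Errfi1 and Sgk1 had log2 differences of 2.61, 0.74 and 0.85 at 24 weeks and -0.63, -2.26 and -0.72 at 32 weeks. Apart from Per1, only Fkbp5, Zbtb16 and Tsc22d3 of that list were correlated with the 10. Npas2, outside the list, gave r = -0.82 and rho = -0.88 with Fkbp5, and r = -0.71 without 2. The part of glucocorticoids in the clock genes' levels was not tested.

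Genes that follow body temperature, which also carries time of day to peripheral clocks, were read beside these. Cirbp and Rbm3, RNA-binding proteins raised by cold, had log2 differences of 1.24 and 1.11 at 32 weeks, and both had their lowest level in db/m 32 weeks. All 8 heat shock genes were at least 1.5-fold lower in db/db at 32 weeks, where 11.9% of all genes were, with Hspa1a at 138 CPM in db/m 32 weeks, 30.6 in db/db 4 weeks and 1.40 to 3.27 elsewhere. Immediate early genes summed to 330 CPM in db/m 32 weeks and 209 in db/db 12 weeks against 42.6 to 130.4 elsewhere. The db/m 32 weeks library, highest in Arntl, was thus also the highest in heat shock, immediate early and atrial genes, and the part of these in the clock genes' levels was not tested.

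**Figure D5:**
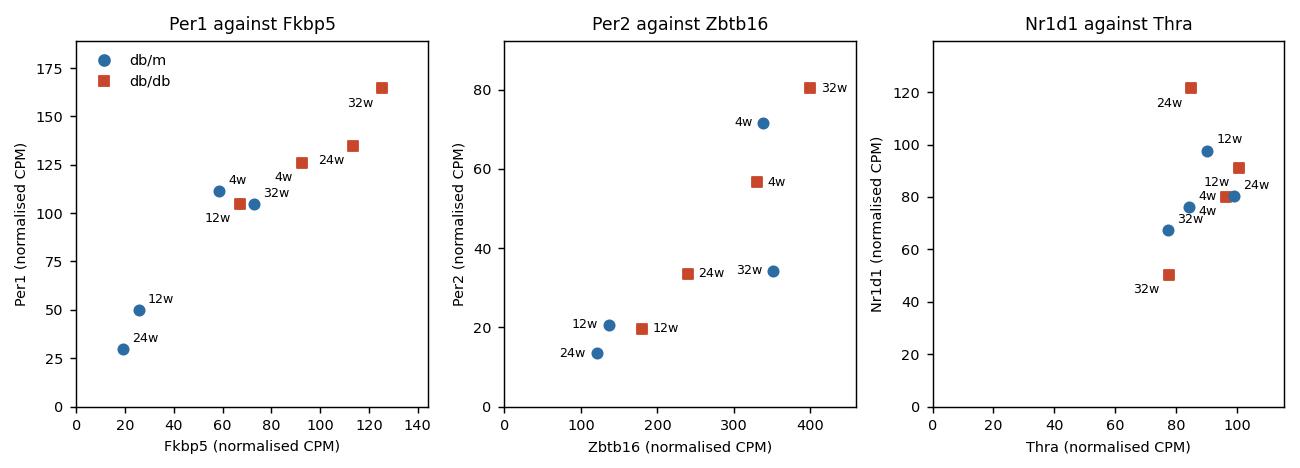
Normalised CPM of Per1 against Fkbp5, Per2 against Zbtb16 and Nr1d1 against Thra, 1 point per library with its age in weeks (db/m blue circles, db/db red squares). Per1 and Fkbp5 were both lowest in db/m 24 weeks (29.6 and 19.4 CPM) and highest in db/db 32 weeks (164 and 125 CPM).

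A test was possible only over ages, with 4 db/db against 4 db/m libraries and age as a factor, and was read for genes outside the 10. By edgeR's quasi-likelihood test with Benjamini-Hochberg adjustment 0 of 16008 genes (0%) passed an adjusted p of 0.05, with 1876 at an unadjusted p under 0.05, and the Wald test of DESeq2 called 273. Of 65 genes in the clock loop, kinase and ligase, output, glucocorticoid, temperature and immediate early lists, Per1 left out, 0 passed in edgeR, 14 had an unadjusted p under 0.05 and 6 were called by DESeq2. Bhlhe41 was higher in db/db at 4 of 4 ages, by 0.53 ± 0.10 (log2, SE), with an adjusted p of 0.231 in edgeR and 0.0065 in DESeq2. Fkbp5 was higher at 4 of 4 ages, by 1.32 ± 0.31, with adjusted p = 0.286 in edgeR and 0.0019 in DESeq2. Usp2 and Coq10b were higher at 4 of 4 ages by 0.70 ± 0.13 and 0.71 ± 0.15, and Kcnip2 lower at 4 of 4 by -0.84 ± 0.18 (adjusted p = 0.231, 0.258 and 0.261 in edgeR and 0.0017, 0.0118 and 0.0055 in DESeq2). Dgat2, a triglyceride synthesis enzyme, was higher at 4 of 4 by 0.47 ± 0.09 (adjusted p = 0.231 in edgeR and 0.0024 in DESeq2). Ciart, higher at 3 of 4 ages by 1.32 ± 0.51, had adjusted p = 0.397 in edgeR and 0.156 in DESeq2. In the same fit the estimates of the 10, as a description, were 1.01 ± 0.31 for Per1, -0.65 ± 0.21 for Npas2, 0.42 ± 0.17 for Tef, -0.62 ± 0.50 for Arntl, 0.52 ± 0.32 for Per2 and 0.52 ± 0.41 for Dbp. They were -0.15 ± 0.13 for Nr1d2, -0.08 ± 0.32 for Per3, 0.05 ± 0.10 for Clock and 0.03 ± 0.16 for Nr1d1, and the median of the 10 was 0.04. For a linear change with age, 0 of 15571 genes (0%) passed in edgeR, with 1086 at an unadjusted p under 0.05, and DESeq2 called 109. Hlf changed by -0.51 ± 0.11 per 10 weeks, with adjusted p = 0.372 in edgeR and 0.0078 in DESeq2. In edgeR the Hlf estimate was -0.23 without the libraries of 4 weeks and -0.73 without those of 32 weeks. Of the 10, as a description, Dbp and Per3 had estimates of -0.58 ± 0.17 and -0.39 ± 0.16 per 10 weeks, and the other 8 lay between -0.17 for Tef and 0.16 for Arntl, with a median over the 10 of -0.10.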

How the data were processed

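The 8 libraries hold RNA of whole hearts, prepared as strand-specific libraries after rRNA depletion. The authors deposited, for each gene and library, an unnormalised count of reads, and beside it an FPKM value scaled to library total and gene length. The submitters' processing notes name HISAT2, StringTie 1.3.0 and the builds GRCm38 and mm10, without roles, and the counting tool and its strand setting are not given in the sources used here. Gene positions were those of the deposited table. Every column of values was assigned to a library (0 not used).

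The work on counts used edgeR 4.0.16 (TMM factors, prior count 2) and DESeq2 1.42.0 under R 4.3.3. Tables and plots were made with pandas 2.3.3, numpy 2.4.6 and matplotlib 3.10.9 under Python 3.11.15. Libraries of equal age were compared by fold alone (at least 1.5) where a gene had 10 or more counts in both together, and ranges (at least 2-fold) on genes with a mean of at least 1 CPM. The quasi-likelihood fits used genes passing filterByExpr, with age or genotype as a factor, and an adjusted p under 0.05. Only the edgeR fits were tested on simulated counts. These had the same spread set for every gene and changes larger than the estimates given here, so they do not tell the power of the fits on these data. Labels do not say how many animals each library holds, so p-values measure only the spread between these libraries.

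The members and gene lists were chosen with earlier results of these data known. Named were all 10 clock genes, the 11 other clock loop genes (1 further gene of that list is not reported here), up to 6 genes of widest range in each further list (Usp2, Dgat2 and Tsc22d3 are outside this rule and were chosen after their values were seen), and the 5 genes most like Arntl and Dbp. Lists share Per1, Tsc22d3, Klf9 and Pdk4. Alternatives were other scalings, filters, folds, prior counts, the FPKM ratio, the Wald test of DESeq2, no age term, and leaving out libraries.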

Additional observations from a re-analysis of the deposited data

Results flagged for a closer look

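Per3 and Dbp are given here because the db/db library was past 1.5-fold on opposite sides of the db/m library at different ages. Per3 had a log2 difference of -0.76 at 4 weeks and 1.22 at 32 weeks. Dbp had a log2 difference of -0.59 at 4 weeks and 1.58 at 24 weeks. With 1 library per genotype and age, the difference between ages was not tested for either gene, and the time of day of sampling cannot be told apart from age and genotype.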

How the results depend on the processing

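Each of the 10 genes was compared at each age under 4 alternatives of scaling, value or prior count. Of the 160 values, 125 stayed within the 95% counting interval of the reported value, 35 moved further, and 0 reversed among the differences past 1.5-fold. At a limit of 2-fold, 0 of the 10 genes were past it at 4 weeks and 3 at 24 weeks, against 2 and 5 at 1.5-fold, where 10.6% and 13.1% of all genes were past 2-fold either way. In the fit of genotype over 4 ages, DESeq2 called 273 genes where edgeR called 0, no age term gave 1, and leaving out each age in turn gave 0 to 1, the 1 without the libraries of 4 weeks. In the linear fit of age, DESeq2 called 109 where edgeR called 0. The cause was not tested. The range at least 2-fold was met by 9 of the 10 on total counts alone, Nr1d2 among them (38.8% of all genes), and by 6 to 8 of the 10 genes when each library was left out in turn (30.9% to 35.6% of all genes), with 6 without db/db 32 weeks and 7 without db/m 32 weeks or db/db 24 weeks. The labels give no replicate numbers, and the pairing the labels allow, by age, is the age factor of the genotype fit. At 86 counts, Arntl in db/db 32 weeks is the thinnest value of the 10, and counting errors leave out variation between hearts.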
